A study of Mus musculus with 9 samples.

Results

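The Notch genes described here are 10 symbols chosen by name: the ligands Jag1, Jag2 and Dll1, the receptor Notch1, the Fringe glycosyltransferase Mfng, and the target genes Nrarp, Hes5, Hey1, Hey2 and Heyl. Each of the 10 matched 1 Ensembl identifier among the 51912 genes in the HET and WT files, and 3 of the 10 (Jag1, Mfng and Nrarp) are among the 1137 genes in the HOM files. The other 7 were not analysed here in HOM, and their absence from that list is not a level of 0. RNA was sequenced from mouse cochleae at postnatal day 3, with 3 libraries each of Pou4f3(Δ/Δ) (HOM), Pou4f3(Δ/+) (HET) and Pou4f3(+/+) (WT) mice. Pou4f3 encodes a POU-domain transcription factor of hair cells. What the Δ allele removes, the strain, the sex, and whether a library is 1 animal or a pool are unstated in the labels. The protocols name only wildtype and Pou4f3(Δ/+) animals, and the genotype field of all 9 samples contradicts the titles, so the groups and every direction below follow the titles. Nothing in the labels says that the libraries of a group came from separate animals, so p-values measure the spread between these libraries.

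Notch signalling acts between touching cells: a ligand of the Jagged or Delta-like family on one cell binds a Notch receptor on its neighbour, the receptor's intracellular part is cut free, and with RBPJ it switches on target genes such as those of the Hes and Hey families. In the developing mouse cochlea the pathway is known for lateral inhibition, in which nascent hair cells carrying Dll1 and Jag2 keep their neighbours as supporting cells, while Jag1 marks the prosensory region and later the supporting cells. Fringe enzymes add sugars to Notch receptors and shift which ligands they respond to.

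The levels are FPKM as deposited, fragment numbers scaled by gene length and library depth. Depth recovered from the low values was about 14300000 to 15800000 fragments in the HOM libraries and 14600000 to 17400000 in the HET and WT libraries. Pou4f3 was at 5.92, 1.36 and 9.39 FPKM in the HOM libraries, against 24.21, 21.74 and 25.56 in the HET and 25.02, 24.49 and 26.97 in the WT libraries, which goes with the titles for HOM and does not separate HET from WT. All 1137 genes in the HOM files had a WT mean of at least 1.01 FPKM, and in all 1109 tested (100%) no HOM library reached into the WT range, 69.1% of them with HOM below WT. Membership of the HOM list thus goes with the HOM to WT difference, and tests of HOM against WT describe the listed genes without being independent evidence. In HOM against WT 307 listed genes were called higher (27.7%) and 725 lower (65.4%), against 352 higher of 655 called under median-ratio scaling and 353 of 638 under upper-quartile scaling. In HOM against HET 89 were called higher (8.17%) and 396 lower (36.3%), against 246 higher of 518 and 306 of 529 under the same scalings. Both scalings took their factors from the listed genes alone, most of which lay below WT in HOM. HET replicate 1 and WT replicate 3 stood apart from the other 4 HET and WT libraries (r of 0.985 with each other and 0.953 to 0.975 with those 4, against 0.981 to 0.988 among those 4).

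**Figure D1:**
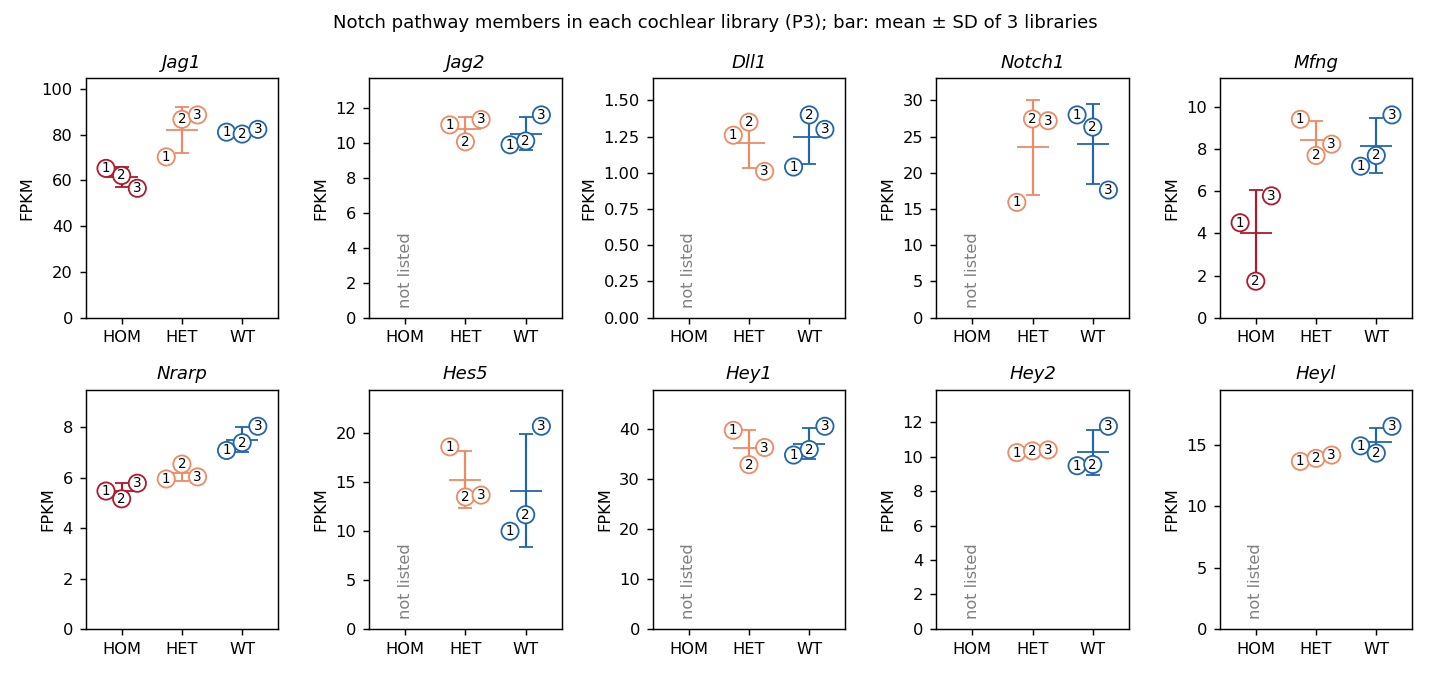
FPKM of the 10 Notch genes in each library, by group; circles carry the replicate number and the bar gives the mean ± SD of 3 libraries. Jag1, Mfng and Nrarp are lower in every HOM library than in any WT library, HET and WT overlap in 8 of the 10 genes, and 7 genes are not listed in HOM.

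In HET and WT cochleae Jag1 was the most abundant of the 10 transcripts and Dll1 the least. Mean levels over the 6 libraries ran from Jag1 (81.5 FPKM) through Hey1 (36.6), Notch1 (23.8), Hes5 (14.7), Heyl (14.6), Jag2 (10.7), Hey2 (10.3), Mfng (8.32) and Nrarp (6.84) to Dll1 (1.23). The ranges of Jag1 and Hey1, of Hey1 and Notch1, of Heyl and Jag2, and of Nrarp and Dll1 did not overlap, so those steps exceeded the spread between libraries. Notch1 and Hes5, Hes5 and Heyl, Jag2 and Hey2, Hey2 and Mfng, and Mfng and Nrarp overlapped in range. Within single libraries Hey2 was above Mfng, and Mfng above Nrarp, in 6 of 6, whereas Hes5 was above Heyl in 2 of 6.

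The ligands came first in the order of the pathway, and Jag1 was the one listed in HOM. The gene lies on the minus strand of chromosome 2, from 137081456 to 137116644 in GRCm38. It had 65.21, 62.11 and 56.51 FPKM in HOM, against 70.23, 86.64 and 88.59 in HET and 81.05, 80.23 and 82.27 in WT. All 3 HOM libraries lay below all 6 others, and the HET library nearest to them was HET replicate 1. Jag1 fell in HOM to 75.5% ± 5.43 of the WT mean (SD, n = 3), a change of -0.40 on the log2(FPKM + 1) scale against WT (SE 0.057, limma, adjusted p = 0.00299 over the listed genes) and -0.41 against HET (SE 0.10, adjusted p = 0.0229). The HOM libraries are shared by both comparisons. Among the listed genes 93.1% were called against WT and 44.5% against HET, so a call says little about Jag1 itself. HOM lay below HET without overlap in 46.2% of listed genes and apart from it in either direction in 61.9%. Over all listed genes the median change against WT was -0.22, and it was -0.049 and -0.028 after median-ratio and upper-quartile scaling; against HET it was -0.16, -0.025 and 0.043. Under these scalings Jag1 changed by -0.19 (adjusted p = 0.0306) and -0.17 (adjusted p = 0.108) against WT, in a range of 0.00270 to 0.108 over 14 alternatives. Against HET the call was lost under both scalings (-0.25 and -0.17), with a replicate block, and without HOM 3, HET 2 or HET 3, in a range of 0.00672 to 0.248.

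Jag2 and Dll1, the ligands of hair cells, showed no difference between HET and WT beyond the spread between libraries. Jag2 (chromosome 12, 112907819 to 112929776, minus strand) was at 11.03, 10.06 and 11.34 FPKM in HET and 9.89, 10.11 and 11.6 in WT. Dll1 (chromosome 17, 15367354 to 15376872, minus strand) was at 1.26, 1.35 and 1.01 FPKM in HET and 1.04, 1.4 and 1.3 in WT. The groups overlapped in both genes. Their changes were 0.036 (95% interval -0.18 to 0.25) and -0.026 (-0.34 to 0.29), and that of Jag1 was 0.0037 (-0.25 to 0.26), with limma's adjusted p = 0.9998 for each. Dll1 rested on about 66 to 99 fragments a library, and the counting interval of its lowest library, HET 3 (0.781 to 1.28 FPKM), reached past the value of HET 1. That interval is exact Poisson at 95% and covers counting error only. The ratio of Jag1 to Jag2 was 6.37 to 8.61 across the 6 libraries and that of Jag2 to Dll1 7.22 to 11.2, both in FPKM. An opposite-strand gene, A930024N18Rik, shares 20.5% of the exon bases of Dll1, at a mean of 0.515 FPKM, and the sources used here do not say whether counting used strand.

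Notch1, the receptor, varied more between libraries than between genotypes. The gene (chromosome 2, 26457903 to 26516663, minus strand) was at 15.92, 27.44 and 27.2 FPKM in HET and 28.0, 26.32 and 17.62 in WT. The 2 low values were those of HET 1 and WT 3, and the other 4 libraries lay within 26.32 to 28.0 FPKM. The change of Notch1 was -0.040 in HET against WT (95% interval -0.66 to 0.58), and 0.0088 (SE 0.052) without HET 1 and WT 3. The opposite-strand genes 0610009E02Rik and Gm13568 share a small part of its exon bases, at means of 0.923 and 0.12 FPKM. Notch2 and Notch3, receptors outside the 10, had the same low libraries. Notch2 was at 9.17, 15.71 and 14.94 FPKM in HET and 17.79, 14.41 and 9.67 in WT, and Notch3 at 13.09, 17.46 and 18.61 in HET and 19.58, 17.76 and 14.64 in WT.

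The split of HET 1 and WT 3 from the other libraries went with gene length across the transcriptome. The median log2 ratio of these 2 libraries to the other 4 was 0.29 in the 1076 genes whose exons span at most 1000 bp, 0.022 in 3062 genes of 4000 to 6000 bp and -0.25 in 2314 genes above 8000 bp. Notch1, with 14232 bp of exon, had a log2 ratio of -0.70, Notch2 (10782 bp) one of -0.74 and Notch3 (8089 bp) one of -0.40. Rbpj, also long (12750 bp), had one of only -0.12. Its HET 1 was the highest HET library (7.05 FPKM) and its WT 3 the lowest WT library (2.82 FPKM). Hes5, the shortest of the 10 at 1363 bp, had the highest, 0.69. Hes1 and Hes6, also short, had 0.69 and 0.48. Nrarp, Heyl and Dll1 had ratios nearest to 0, between 0.049 and 0.093. The part of length in these values was not tested.

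**Figure D2:**
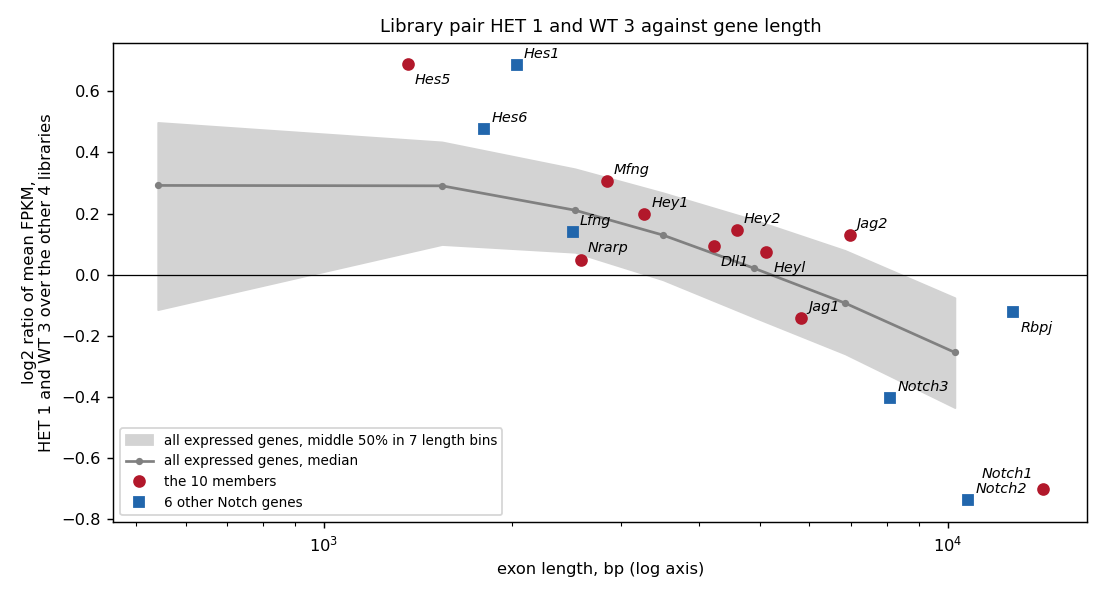
Log2 ratio of mean FPKM in HET 1 and WT 3 over the other 4 HET and WT libraries, against exon length in bp on a log axis; grey shows the median and middle 50% of all expressed genes in 7 length bins, circles the 10 Notch genes and squares 6 others of the pathway. The ratio falls with length, and Notch1 (-0.70) and Notch2 (-0.74) lie below the grey band while Hes5 (0.69) and Hes1 (0.69) lie above it.

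Mfng, the Fringe gene whose RNA is known to be enriched in hair cells of the mouse cochlea, had the largest fall of the 3 listed members. It lies on the minus strand of chromosome 15, from 78755882 to 78773475. Mfng was at 4.51, 1.73 and 5.79 FPKM in HOM, on about 183, 75 and 259 fragments, against 9.43, 7.71 and 8.25 in HET and 7.2, 7.71 and 9.64 in WT. Every HOM library lay below every HET and WT library, with HOM 2 far below HOM 1 and HOM 3. The counting interval of HOM 2 was 1.36 to 2.17 FPKM, below those of HOM 1 (3.88 to 5.21) and HOM 3 (5.11 to 6.54), which overlapped each other. Mfng fell to 49.0% ± 25.4 of WT in HOM (SD, n = 3), a change of -0.97 on the log2(FPKM + 1) scale (SE 0.33, limma, adjusted p = 0.0312), and of -1.01 against HET (SE 0.32, adjusted p = 0.0448). The call against WT was lost under both scalings and without HOM 1 or any 1 WT library, at adjusted p from 0.0516 to 0.0904, in a range of 0.0156 to 0.0904. Without HOM 2 the change was -0.58 against WT and -0.63 against HET. The call against HET was lost in 8 of 14 alternatives, in a range of 0.0163 to 0.115.

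Hair cell markers moved with Mfng across the HOM libraries. Of 10 hair cell markers 7 were listed. Their summed level was 5.51 to 24.32 FPKM in HOM, against 96.25 to 101.04 in HET and 96.25 to 105.52 in WT. All 10 summed to 166 to 205 FPKM in HET and 170 to 233 in WT, and those not listed have no HOM level here. From low to high the order HOM 2, HOM 1, HOM 3 held for Mfng, for Pou4f3 and for 7 of 7 listed hair cell markers. It held for 26.9% of the 1137 listed genes and for 30.0% of those lower in HOM. Myo7a, a motor protein of hair cells, was at 4.12, 1.86 and 5.53 FPKM in HOM, 46.9%, 21.2% and 62.9% of WT, and Mfng at 55.1%, 21.1% and 70.8% of WT in the same libraries. Most of the other listed hair cell markers kept less. Their mean levels in HOM were 50.5% of WT for Atoh1, 26.9% for Ocm, 15.7% for Gfi1, 10.2% for Lhfpl5, 7.03% for Tmc1 and 2.20% for Otof. In bulk cochlea, fewer hair cells and less RNA per hair cell cannot be told apart. Jag1 had another order, with HOM 3 lowest and HOM 1 highest (69.6% and 80.3% of WT). Of the 10 supporting cell markers 3 were listed (Gjb2, Gjb6 and Epyc), at a summed 1192 to 1317 FPKM in HOM, against 798 to 1021 in HET and 878 to 985 in WT. Listing goes with a difference from WT, so neither this sum nor that of the listed hair cell markers stands for the markers left out. Sox2, the defining supporting cell marker, was not among the genes listed in HOM, and it was at 73.49 to 95.88 FPKM in HET and 75.06 to 100.07 in WT. None of the markers of pericytes (8), Schwann and satellite glia (6), spiral ganglion neurons (6) and otic mesenchyme (5) were listed in HOM. Of all genes tested in HET against WT 7.35% were listed, so their absence says little about these cell types. The glial markers summed to 199.5 to 413 FPKM in HET and 259 to 380.2 in WT, the neuronal ones to 35.6 to 59.7 in HET and 25.1 to 61.1 in WT, and the mesenchymal ones to 2106 to 2755 in HET and 2001 to 2408 in WT. The part of these markers in the Notch values was not tested.

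**Figure D3:**
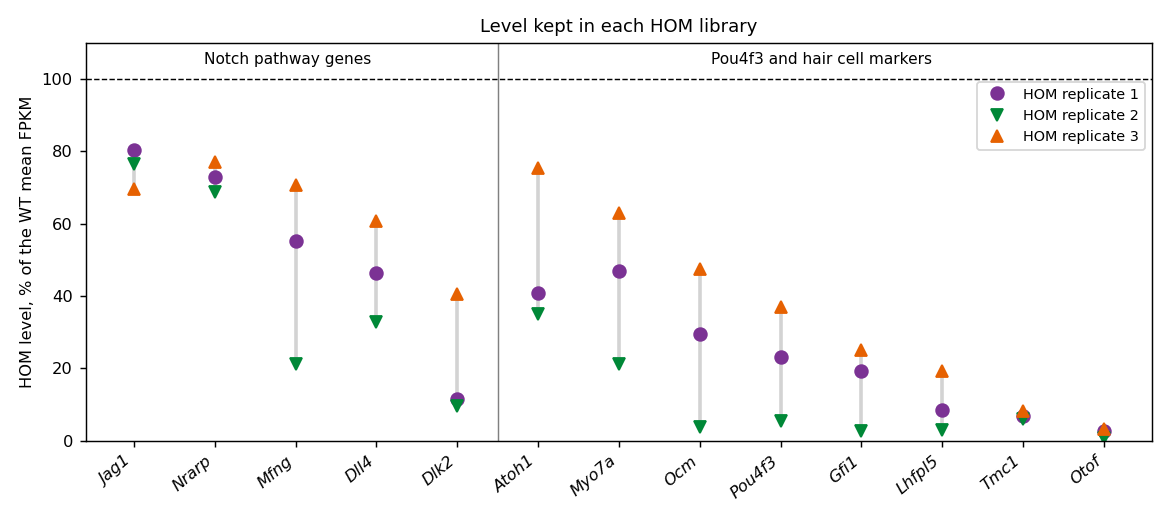
Level in each HOM library as a percentage of the WT mean FPKM (dashed line, 100%), for Jag1, Nrarp and Mfng and the ligand genes Dll4 and Dlk2, and for Pou4f3 and the 7 listed hair cell markers. Mfng spans 21.1% to 70.8% with HOM 2 lowest, like Myo7a (21.2% to 62.9%), whereas Jag1 and Nrarp lie between 68.8% and 80.3% in all 3 libraries. Most of the other hair cell markers lie lower, down to Otof (0.842% to 3.22%).

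The genes whose levels followed Mfng most closely over the 9 libraries, among 1095 listed genes compared, were Cdkl4 (Pearson r 0.991), Card10 (0.986) and Acbd7 (0.984). Card10 is a neighbour of Mfng: it lies on the same strand of chromosome 15, from 78775138 to 78803042, with 1662 bases between the 2 genes. Card10 was at 2.99, 1.88 and 3.62 FPKM in HOM, against 4.84, 4.22 and 4.78 in HET and 4.65, 4.64 and 5.27 in WT. For Jag1 they were Thbs1 (r 0.981), Mafg (0.974) and Cyp26b1 (0.969), which encodes an enzyme that degrades retinoic acid. Cyp26b1 was at 55.24, 47.78 and 49.91 FPKM in HOM, against 58.42, 69.2 and 75.7 in HET and 66.81, 66.38 and 67.28 in WT. For Nrarp they were Cdk15 (0.955), Slc39a3 (0.934) and Gm16275 (0.933). All genes compared here were on the HOM list, whose members differ between HOM and WT in the same libraries.

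Nrarp, whose ankyrin-repeat product is induced by Notch and dampens it, was lowest in HOM, intermediate in HET and highest in WT. The gene (chromosome 2, 25180758 to 25183339, plus strand) was at 5.47, 5.16 and 5.78 FPKM in HOM, 5.95, 6.54 and 6.03 in HET and 7.08, 7.39 and 8.04 in WT. No library of one group reached into the range of another, and the mean levels were 72.9% of WT in HOM and 82.3% in HET. This order with no overlap at either step was seen in 49 of 1083 listed genes (4.52%). At the nearest libraries of HOM and HET, HOM 3 and HET 1, the counting intervals overlapped (5.06 to 6.57 and 5.24 to 6.73 FPKM). So did those of HET 2 and WT 1 (5.81 to 7.33 and 6.31 to 7.91 FPKM). Nrarp fell in HOM against WT by 0.39 (SE 0.064, limma, adjusted p = 0.00474). That call held in 14 of 14 alternatives, between -0.45 and -0.19. However, 93.1% of listed genes were called against WT, and the alternatives reused the same values, so this says little about Nrarp itself. The change was -0.15 in HOM against HET (SE 0.069, adjusted p = 0.116) and -0.24 in HET against WT (95% interval -0.44 to -0.048, unadjusted p = 0.0223, adjusted p = 0.9998 over 15391 genes), and neither passed the threshold. Under median-ratio and upper-quartile scaling the change against HET was -0.013 and 0.056. The HET and WT libraries did not overlap, as in 5.94% of all genes tested, and the two-sided exact permutation p was 0.1, the smallest that 3 against 3 libraries allow. A gene on the opposite strand, Gm38287, shares 79.4% of the exon bases of Nrarp, and it was at 0 FPKM in the HET and WT libraries. Whether counting used strand is not stated, so that value does not show what the overlap did to Nrarp.

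Hes5, Hey1, Hey2 and Heyl encode transcriptional repressors that Notch induces, in supporting cells among others, and none of the 4 passed the test in HET against WT. Hes5 (chromosome 4, 154960923 to 154962371, plus strand) was at 18.56, 13.45 and 13.64 FPKM in HET and 9.96, 11.64 and 20.66 in WT. The highest values were again those of HET 1 and WT 3, and the change was 0.15 (95% interval -0.48 to 0.79). Without these 2 libraries the 2 HET values lay above the 2 WT values, at a change of 0.31 (SE 0.084, limma, adjusted p = 0.229). The opposite-strand gene Gm20421 shares 31.8% of the exon bases of Hes5, at a mean of 1.55 FPKM.

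Hey1 (chromosome 3, 8663359 to 8667256, minus strand) was at 39.64, 32.78 and 36.21 FPKM in HET and 34.71, 35.81 and 40.45 in WT. Hey2 (chromosome 10, 30832359 to 30842801, minus strand) was at 10.23, 10.33 and 10.39 FPKM in HET and 9.47, 9.54 and 11.76 in WT. The groups overlapped in both, at changes of -0.031 (95% interval -0.27 to 0.21) and 0.014 (-0.22 to 0.25). Heyl, known also from pericytes and smooth muscle, lies on the plus strand of chromosome 4 (123233556 to 123249875). Heyl was at 13.67, 13.92 and 14.19 FPKM in HET and 14.94, 14.35 and 16.54 in WT. Every HET library was below every WT library, by a margin of 14.19 against 14.35 FPKM. The change of Heyl was -0.12 (95% interval -0.31 to 0.064, limma, adjusted p = 0.9998), and -0.055 without HET 1 and WT 3. Pdgfrb, the defining pericyte marker, was at 16.3 to 19.27 FPKM in HET and 17.72 to 19.77 in WT, and the 8 pericyte and smooth muscle markers summed to 41.1 to 50.1 FPKM in HET and 44.8 to 49.9 in WT.

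Promoter sequence was at hand for 7 of the 10 genes in RefSeq's GRCm38.p6 table, and the 250 bases before the start are shown for Nrarp, the target listed in HOM, and for Hes5 and Hey2, targets whose groups overlapped. Capitals mark the core of the RBPJ motif, GTGGGAA or its reverse complement TTCCCAC, the E-box CACGTG, and the octamer ATGCAAAT, which several POU factors recognise. The motifs were chosen with these sequences already seen.
Nrarp, chr2:25180508-25180757, plus strand: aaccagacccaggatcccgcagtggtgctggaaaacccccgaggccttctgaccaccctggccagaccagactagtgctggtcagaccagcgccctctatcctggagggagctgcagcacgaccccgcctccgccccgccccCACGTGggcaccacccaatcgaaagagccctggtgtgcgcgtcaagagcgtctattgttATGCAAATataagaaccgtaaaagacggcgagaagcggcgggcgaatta
Hes5, chr4:154960673-154960922, plus strand: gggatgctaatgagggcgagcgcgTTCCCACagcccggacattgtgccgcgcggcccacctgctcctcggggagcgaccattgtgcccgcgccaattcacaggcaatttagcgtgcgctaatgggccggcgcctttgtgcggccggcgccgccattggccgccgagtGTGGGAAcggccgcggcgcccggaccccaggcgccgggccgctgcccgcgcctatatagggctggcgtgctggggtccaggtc
Hey2, chr10:30842784-30843033, minus strand: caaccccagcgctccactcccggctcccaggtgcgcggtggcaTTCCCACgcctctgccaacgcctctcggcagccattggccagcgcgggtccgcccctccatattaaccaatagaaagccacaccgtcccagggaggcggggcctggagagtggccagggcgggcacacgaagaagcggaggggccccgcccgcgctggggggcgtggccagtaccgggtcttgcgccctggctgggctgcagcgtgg
Counted from the start, Hes5 held 2 matches of the RBPJ core, beginning at -226 and -83, and Hey2 held 1, at -207. Nrarp held 0 of the RBPJ core in this window, 1 E-box at -108 and 1 octamer at -49. One of the windows of Dll1 also held an octamer, at -219. The other window of Dll1 and those of Jag1, Jag2 and Notch1 held none of these motifs. On both strands the RBPJ core is in 5.42% of 32851 promoter windows of this length, the E-box in 6.02% and the octamer in 1.6%. The matches are letters in a window and say nothing of binding.

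In HET against WT none (0) of the 10 genes passed limma's threshold, like 0 of 15391 genes tested (0%), and 266 of all genes (1.73%) had an unadjusted p under 0.05. Among the 10, Nrarp alone had an unadjusted p under 0.05. By direction 5 of the 10 were higher and 5 lower, with a median change of -0.011, against 0.0010 over all genes. Groups lay apart in 2 of the 10, Nrarp and Heyl, both lower in HET, where 3.12% of all genes had HET below WT without overlap and 2.82% HET above WT. The 95% intervals were widest for Hes5 (up to 0.79) and Notch1 (down to -0.66), and changes within them are not excluded. Mfng was at 8.46 ± 0.880 FPKM in HET and 8.18 ± 1.29 in WT (SD, n = 3 each), a change of 0.048 (95% interval -0.25 to 0.35).

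**Figure D4:**
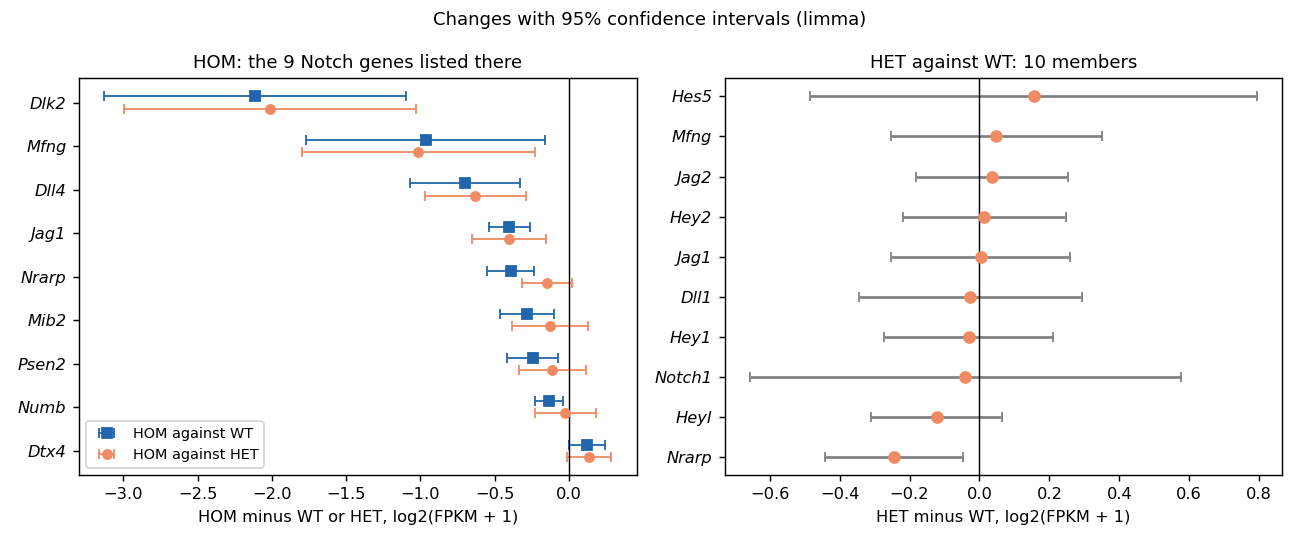
Changes on the log2(FPKM + 1) scale with limma's 95% intervals: left, the 9 Notch pathway genes listed in HOM, HOM against WT (squares) and HOM against HET (circles); right, the 10 members in HET against WT. Dlk2 (-2.11 and -2.01) and Mfng (-0.97 and -1.01) lie farthest from 0 on the left, and on the right the interval of Nrarp (-0.44 to -0.048) is the one that leaves out 0.

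Of 49 other genes of the pathway, 6 were listed in HOM and 43 were tested in HET against WT. Across the 10 and the 49, 9 were listed, and 7.35% of all genes tested in HET against WT were. Against WT 5 of the 6 were called lower in HOM (65.4% of listed genes were). The median change was -0.26 over the 6, against -0.22 over all listed genes. Against HET 5 of the 6 changed downward, and 2 of the 6, Dlk2 and Dll4, were called lower (36.3% of listed genes were).

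Dlk2, a Delta-like gene without the domain of canonical Notch ligands, changed the most. It was at 1.65, 1.37 and 5.86 FPKM in HOM, against 16.23, 10.8 and 12.97 in HET and 12.43, 12.15 and 18.77 in WT. The HOM libraries lay below all HET and WT libraries, whereas HET and WT overlapped. Dlk2 changed by -2.11 against WT (SE 0.42, limma, adjusted p = 0.00804) and by -2.01 against HET (SE 0.41, adjusted p = 0.0122, but 0.0576 without HET 3, in a range of 0.000920 to 0.0576). Dll4, the ligand of sprouting endothelium, was at 1.2, 0.85 and 1.57 FPKM in HOM, against 2.53, 2.06 and 2.59 in HET and 2.12, 3.12 and 2.51 in WT. It changed by -0.70 against WT (SE 0.15, limma, adjusted p = 0.0104) and by -0.63 against HET (SE 0.14, adjusted p = 0.0162, but 0.0709 without HET 3, in a range of 0.00778 to 0.0709). Both genes had the order of the hair cell markers in HOM, as did Mfng and Nrarp. Thus 4 of the 9 listed Notch pathway genes had it, against 26.9% of all listed genes and 30.0% of those lower in HOM. For Nrarp the order lay within counting error, as the intervals of HOM 2, HOM 1 and HOM 3 overlapped (4.48 to 5.92, 4.74 to 6.28 and 5.06 to 6.57 FPKM). Of 8 endothelial markers 1 was listed, Tie1, at 1.36 to 2.03 FPKM in HOM, against 1.83 to 2.43 in HET and 2.36 to 2.94 in WT. Listing goes with a difference from WT, so Tie1 does not stand for the endothelial markers left out. Cdh5, the defining one, was not listed, and it was at 4.44 to 5.66 FPKM in HET and 5.29 to 6.59 in WT. All 8 summed to 57.4 to 71.2 FPKM in HET and 66.9 to 71.5 in WT.

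The other 4 listed genes changed less. Mib2, a ubiquitin ligase of ligand uptake, changed by -0.28 in HOM against WT, Psen2, a subunit of the receptor-cleaving gamma-secretase, by -0.25 and Numb, an inhibitor of Notch, by -0.14, and all 3 passed the threshold. Mib2 and Psen2 were not called under either scaling, at changes between -0.084 and -0.042, and Numb turned to 0.069 and 0.093. Psen2 was also lost without HOM 1, WT 1 or WT 2 and Numb without HOM 1, WT 1 or WT 3 and in the fit of all 3 groups (adjusted p up to 0.107). Dtx4, a Deltex ubiquitin ligase, changed by 0.12 (adjusted p = 0.0519), and it was called higher under both scalings (0.31 and 0.33) and in 3 other alternatives, in a range of 0.00205 to 0.154 over 14 alternatives.

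In HET against WT 0 of the 43 others passed the threshold and 0 had an unadjusted p under 0.05, with 15 higher, 28 lower and a median change of -0.037. Lfng, the Fringe gene of supporting cells, was at 48.1, 39.45 and 43.14 FPKM in HET and 47.19, 46.12 and 48.71 in WT. Lfng thus stood 5.05 to 6.55 times above Mfng in the 6 libraries. Rbpj, the DNA-binding partner of the cleaved receptor, was at 7.05, 5.46 and 5.55 FPKM in HET and 5.78, 4.71 and 2.82 in WT, a change of 0.40 that was 0.064 without HET 1 and WT 3. Hes1 was at 16.78, 9.76 and 10.51 FPKM in HET and 9.46, 11.66 and 16.52 in WT, and Hes6, a Hes gene known from hair cells, at 23.14, 14.52 and 14.91 in HET and 15.69, 16.21 and 19.49 in WT. Both were highest in HET 1 and WT 3.

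Over the 6 HET and WT libraries, with 15226 genes compared, the closest patterns to Notch1 were those of Lrp1 (r 0.9996), Fasn (0.999) and Piezo1 (0.998). Those closest to Hes5 were Gnpnat1 (0.995), Cdk2ap1 (0.994) and Gnal (0.992), and to Jag2 Flcn, Ccdc85b and Eri1 (0.995 to 0.996). Hey1 was closest to Tmod4, Ubxn6 and Gm26739 (0.997 to 0.9996), Hey2 to Hnrnpu, Zfp992 and Pnn (0.989 to 0.991), Heyl to Klhl2, Tecpr1 and Gm11993 (0.989 to 0.994) and Dll1 to Tshz2, 2610044O15Rik8 and Gm13453 (0.971 to 0.973). The 6 points include HET 1 and WT 3 with their split by gene length.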

How the data were processed

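RNA-seq of 9 mouse cochlear libraries at postnatal day 3 was used, grouped by sample title (3 HOM, 3 HET, 3 WT). Per the file headers the deposited values are FPKM made by the authors, and they carry 2 decimals. The submitters' processing notes name DESeq2 and mm8, with no role; the aligner, the counter and the annotation they used are not given there. GENCODE M21 on GRCm38 supplied names for the identifiers (99.6% of 51912), whose exon lengths and coordinates are used. Depth was recovered as the value at which FPKM of up to 2, in genes of up to 600 bp of exon, became whole fragments; 99.3% to 100% of them did within 0.1, from 17 to 22 such values per HOM library and 1967 to 2416 per HET or WT library. Fragment numbers for the Notch genes are approximate, since the authors' gene lengths are not given.

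Groups were compared with limma 3.58.1 (R 4.3.3; trended empirical Bayes) on log2(FPKM + 1), which understates changes of low genes, for genes that reached 1 FPKM in 3 or more of the 6 libraries compared; p-values are two-sided and Benjamini-Hochberg adjusted over all genes tested (threshold 0.05). HOM comparisons were fitted on the listed genes alone, and their scaling factors came from those genes. The fits were tested on simulated data with some genes raised and as many lowered. In HOM against WT 93.1% of genes were called, mostly lower, so the simulated data do not speak for that fit. Alternatives were the pseudocount, filters, scaling, trend, replicate block, a fit of all groups, and libraries left out. The members, lists and tests were chosen with earlier results of these data known. Named were the 10 members, called pathway genes, 6 others best known in the cochlea, defining and listed markers and the 3 genes of closest pattern to each member.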

Additional observations from a re-analysis of the deposited data

How the results depend on the processing

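Depth limited Dll1, on 66 to 99 fragments a library, and 3 libraries a group limited every test. In the 3 comparisons 40 changes of Notch pathway genes were recomputed, and 20 of them turned direction in at least 1 alternative, mostly small changes of HET against WT. Nrarp, Dll4 and Dlk2 kept direction and call in HOM against WT in every alternative run. The call of Jag1 there was lost only under upper-quartile scaling. These genes are all on the HOM list, where 93.1% of genes tested were called.

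In HOM against WT 1032 genes were called, against 632 with a minimum of 5 FPKM (which tests fewer genes), 655 after scaling by median ratios and 638 by upper quartiles, and 588 to 864 without 1 library (588, 594 and 672 without WT 1, 2 and 3, where fewer genes were tested); of 655 and 638, 352 and 353 were higher. Of 9 Notch pathway genes 8 were called, against 5 and 4 under these scalings and 5 to 9 without 1 library. In HOM against HET 485 were called, against 272 at 5 FPKM, 304 with a replicate block and 116 to 431 without 1 library (116 without HET 3, 142 without HET 2). Notch calls there were 4, against 2 at 5 FPKM and 0 to 4 without 1 library (0 without HET 3). In HET against WT 0 were called, 0 to 1 without 1 library (1 without WT 1 or WT 2), and 5 in the fit of all 3 groups over listed genes (Plscr5, Mir7241, Gnpda1, Gm13373 and Myo16, named after their values were seen); Notch calls were 0 throughout.

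Directions turned as follows, and the cause was not tested. In the HOM comparisons both scalings centre on the listed genes, from which alone their factors came, and so are no independent check. Under median-ratio and upper-quartile scaling Numb changed by 0.069 and 0.093 (HOM against WT) and by 0.13 and 0.21 (HOM against HET), Psen2 by 0.023 and 0.091 and Mib2 by 0.019 and 0.094 (HOM against HET), and Nrarp by 0.056 (upper quartile, HOM against HET). Without HET 1 and WT 3 together, Notch1 changed by 0.0088, Hes6 by -0.11 and Dtx4 by 0.037 in HET against WT. Without 1 library, Numb ranged from -0.11 to 0.040 in HOM against HET. In HET against WT the ranges were -0.057 to 0.11 for Jag1, -0.0042 to 0.10 for Jag2, -0.094 to 0.040 for Dll1, -0.24 to 0.21 for Notch1, -0.029 to 0.16 for Mfng, -0.044 to 0.45 for Hes5, -0.097 to 0.037 for Hey1 and -0.035 to 0.11 for Hey2. Among the others they were -0.29 to 0.16 for Notch2, -0.19 to 0.063 for Notch3, -0.25 to 0.18 for Hes1, -0.20 to 0.12 for Hes6, -0.17 to 0.033 for Dll4, -0.24 to 0.092 for Dlk2 and -0.040 to 0.021 for Dtx4.

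The replicate numbers did not pair the libraries of HET and WT, where same-numbered deviations correlated between -0.52 and 0.29. These correlations lay between 0.094 and 0.28 for HOM and WT, and between -0.32 and 0.089 for HOM and HET. In HOM against WT each library correlated best with its own number, a hint from the data and not the design. With the replicate block 304 genes were called in HOM against HET and Jag1 was not (adjusted p = 0.0631); no other call of a named gene changed.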
